A study of Homo sapiens with 8 samples.

Results

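The genes described here are 10 interferon-stimulated genes, IFI27, IFI6, IFI35, IFI44, IFI44L, IFITM1, MX1, MX2, ISG15 and ISG20, of 27274 genes named on the arrays. All non-control probes carrying 1 of these names were taken, which gave 11 of 34127 probes, with a pair of probes for IFITM1 and a single probe for each of the others. The expression of these genes was measured in 2 human pancreatic ductal adenocarcinoma lines, MIA PaCa-2, which comes from a primary tumor, and Capan-1, which comes from a liver metastasis. In each line, cells given HOXB7-specific siRNA at 10 nM for 48 hours (TriFECTa Dicer-substrate kit, Lipofectamine RNAiMAX) were set against parental cells. The study worked with several siRNA duplexes against HOXB7, and the labels do not name the one used on the arrays. There were 2 one-color (Cy3) Agilent arrays for each of the 4 groups, and the 10 genes were chosen by their values in the siRNA-against-parental comparison of MIA PaCa-2, in which some lay above and some below the parental arrays. Those values are therefore given as a description without a test, while Capan-1 and the comparison of both parental lines were tested.

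Interferons bind receptors at the cell surface and activate the JAK kinases. These lead to a complex of transcription factors with IRF9 that binds the interferon-stimulated response element (ISRE) in promoters and raises the transcription of many genes, a large part of which act against viruses. Double-stranded RNA can be recognised by sensors such as TLR3, RIGI and IFIH1 that induce interferon. Many tumor lines express part of these genes without added interferon.

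The promoters of these genes are shown because the ISRE is the sequence they are known to share. In RefSeq promoter windows (GRCh38.p14), which run from 250 bases before to 50 bases after the transcription start, 9 of the 10 genes were found, with 13 windows, and MX2 was not matched. The core GAAANNGAAA was searched on both strands. It was present in 1255 of 35116 windows of the same length over all genes (3.57%), and in 11 of the 13 windows of these genes, belonging to 8 of the 9 genes. Windows of the same gene can overlap and hold the same core, and the share over all genes was computed per window, not per gene. The following stretches, written 5′ to 3′ on the strand of the gene and all lying before the transcription start, hold the cores in capitals, so that a core on the opposite strand reads TTTCNNTTTC.
IFI27 chr14:94110608-94110670: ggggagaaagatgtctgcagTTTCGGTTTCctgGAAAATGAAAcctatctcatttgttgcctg
IFI6 chr1:27672256-27672368: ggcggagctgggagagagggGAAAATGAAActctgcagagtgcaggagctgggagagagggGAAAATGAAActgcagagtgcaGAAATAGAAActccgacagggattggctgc
IFI44 chr1:78649751-78649788: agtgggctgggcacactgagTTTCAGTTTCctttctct
IFI44L chr1:78620264-78620404: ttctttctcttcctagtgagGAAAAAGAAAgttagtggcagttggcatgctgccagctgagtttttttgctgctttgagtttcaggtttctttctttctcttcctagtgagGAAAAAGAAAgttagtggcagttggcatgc
IFITM1 chr11:313980-314029: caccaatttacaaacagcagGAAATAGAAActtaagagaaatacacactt
MX1 chr21:41431844-41431873: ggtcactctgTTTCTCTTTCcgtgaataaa
ISG15 chr1:1013364-1013419: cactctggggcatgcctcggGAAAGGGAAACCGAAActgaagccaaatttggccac
ISG20 chr15:88638927-88638976: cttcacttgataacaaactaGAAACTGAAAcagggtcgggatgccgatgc

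IFI27 held a core on each strand, -108 to -99 and -95 to -86 bases from its first start. IFI6, a member of the same protein family, held 3 cores on its own strand between -156 and -84. IFI44L and IFI44 are neighbours on chromosome 1, and IFI44L held 2 identical cores whereas IFI44 held 1 on the opposite strand at -18 to -9. The 2 cores of ISG15 overlapped. IFITM1 had a second core across its start, from -6 to 4, and the MX1 windows held 1 core after the first start, at 12 to 21, none at the second and 1 before the third. In the window of IFI35 these letters were not present. A match is a description of the sequence and binding was not measured.

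**Figure D1:**
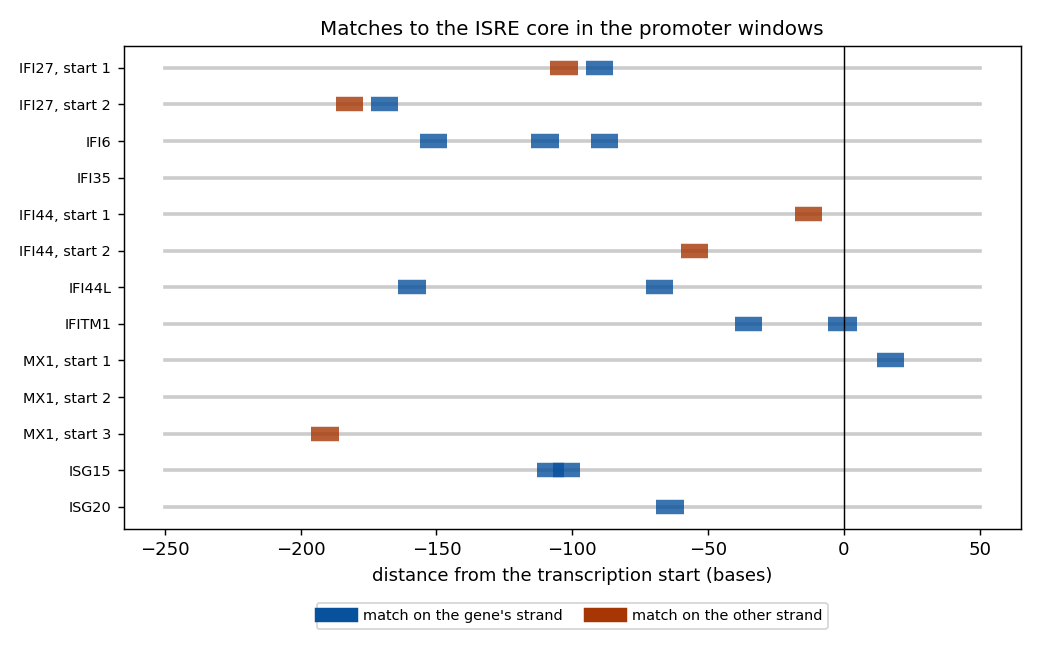
Position of each match to the ISRE core in the promoter windows of 9 genes; the x axis is the distance from the transcription start in bases and each grey line is 1 window of 300 bases. Blue boxes are matches on the strand of the gene and orange boxes matches on the other strand; 11 of 13 windows hold at least 1.

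Levels below are the log2 of the background-subtracted intensity minus the 75th percentile of the same array, and are compared only within a gene. HOXB7 was lower on the siRNA arrays of both lines. It was not well above background on either MIA PaCa-2 siRNA array, which gave a fall of at least 2.81-fold there (adjusted p = 0.0173, limma), and its log2 fold change in Capan-1 was -2.62 (SE, standard error, 0.26, adjusted p = 0.121, limma). The MIA PaCa-2 call was lost with only the arrays compared (adjusted p = 0.205, limma) and without a filter on dim probes (0.0515). Of all genes in that line, 0% and 0.0367% were then called, against 2.3% in the main fit. The call was also lost without siRNA replicate 1 of that line or any 1 of the Capan-1 arrays, which leaves 1 array in a group. With normexp background correction the log2 fold change in MIA PaCa-2 was -0.10. In Capan-1 the fall passed the threshold with normexp (log2 fold change -0.66, adjusted p = 0.0353, limma), without scaling between arrays (0.0182), with an intensity trend (0.0302) and without siRNA replicate 2 (0.0451). Keratins KRT7, KRT8, KRT18 and KRT19 were above background on all 8 arrays, whereas EPCAM (TACSTD1 in the array files) and CDH1, which define epithelial cells, were above background on no MIA PaCa-2 array and on all 4 Capan-1 arrays. The median spot intensity ranged from 39.5 to 54.0 over the arrays. Each line was hybridised on its own slide, with the siRNA samples at positions 1 and 2 and the parental samples at 3 and 4, so line and slide, and treatment and position, cannot be told apart. The paper's methods keep MIA PaCa-2 in RPMI and Capan-1 in IMDM with more serum, so line and medium cannot be told apart either. They plate cells in RPMI before transfection and do not state the medium of the parental Capan-1 cells on the arrays. No array was of cells given scrambled siRNA, so HOXB7 silencing and transfection cannot be told apart. The labels do not say that the arrays of a group came from separate cultures, and p-values then measure only the spread between these arrays. In bulk RNA, fewer expressing cells and less RNA per cell cannot be told apart.

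In MIA PaCa-2, 4 of the 9 measurable genes, IFI27, IFI6, ISG20 and MX2, had both siRNA arrays above both parental arrays, and 2, IFI44 and ISG15, had both below. Over all 19170 genes tested in this line the corresponding shares were 27.9% and 23.8%, and the shares past the limma threshold were 1.17% higher and 1.12% lower. These genes were selected on this comparison, so nothing is read from their counts. The median log2 fold change of the 9 genes was 0.02, against 0.019 over all genes.

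IFI27 encodes a small hydrophobic membrane protein linked to mitochondria. Its level was 0.16 and 0.16 after siRNA and -1.98 and -1.88 in parental cells. The log2 fold change came to 2.09 (SE 0.10), a 4.26-fold higher level, and it ranked 19 of 19170 genes from the highest. Its size depended on the processing, at 1.53 with normexp background correction and 1.87 without scaling between arrays. A relative of the same family, IFI6, which restrains cell death and the replication of some viruses, was 1.04 and 1.23 after siRNA and 0.27 and 0.35 in parental cells. Its log2 fold change was 0.82 (SE 0.12), or 1.77-fold. Both genes separated the groups, IFI27 by the wider margin.

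ISG20, an exonuclease that degrades single-stranded RNA, was 3.90 and 3.86 after siRNA and 3.58 and 3.54 in parental cells, a log2 fold change of 0.32 (SE 0.09). MX2, a dynamin-like GTPase that acts against retroviruses and herpesviruses, was 0.46 and 0.49 after siRNA and 0.40 and 0.38 in parental cells, a log2 fold change of 0.09 (SE 0.07). The groups did not overlap for either gene. Leaving out the scaling between arrays lowered every log2 fold change of this line by the same amount and put the median of all probes at -0.19. On that scale the log2 fold change was 0.10 for ISG20, with overlapping groups, and -0.13 for MX2.

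ISG15, a ubiquitin-like protein that is joined to other proteins, was 4.73 and 4.67 after siRNA and 5.02 and 5.02 in parental cells. Its log2 fold change was -0.32 (SE 0.11), a 1.25-fold lower level. IFI44, a cytoplasmic protein with antiviral activity, was -2.14 and -2.20 after siRNA and -2.05 and -1.54 in parental cells, a log2 fold change of -0.37 (SE 0.18). Here the lower parental array lay close to the siRNA arrays, and without parental replicate 2 the difference of IFI44 was -0.12. Both genes were lower under every scaling tried.

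IFI35, a leucine zipper protein that binds NMI, was -0.10 and 0.06 after siRNA and 0.04 and -0.03 in parental cells. MX1, the dynamin-like GTPase that acts against influenza viruses, was -2.68 and -2.71 after siRNA and -2.67 and -2.76 in parental cells. IFITM1, a membrane protein that hinders virus entry, was 6.30 and 6.22 after siRNA and 6.28 and 6.34 in parental cells on its brighter probe. The groups overlapped for these 3 genes, and log2 fold changes lay between -0.05 and 0.02. The second IFITM1 probe read 4.93 and 5.00 after siRNA and 5.08 and 5.11 in parental cells, a log2 fold change of -0.13 without overlap, so the probes of this gene differed in that respect. IFI44L was not well above background on any of the 4 MIA PaCa-2 arrays and has no fold change in this line.

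**Figure D2:**
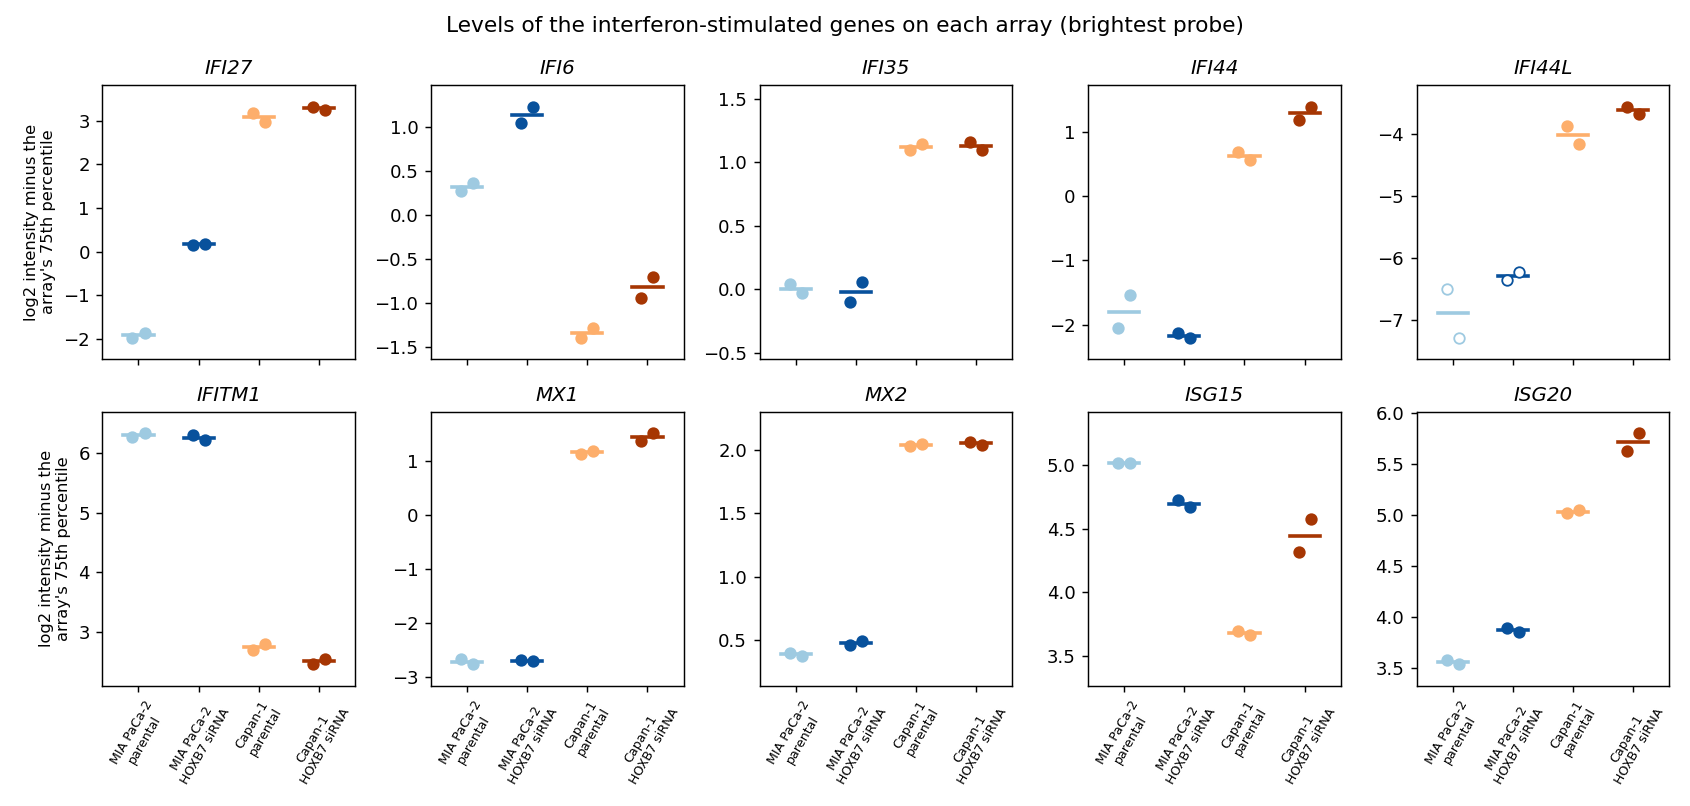
Level of each gene on each of the 8 arrays (log2 intensity minus the 75th percentile of the array, brightest probe); points are arrays, horizontal lines are means of 2 arrays, open points mark groups with no array well above background, and each panel has its own y axis. IFI27 goes from -1.98 and -1.88 to 0.16 and 0.16 in MIA PaCa-2, while ISG15 is lower after siRNA in MIA PaCa-2 and higher in Capan-1.

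In Capan-1, all 10 genes were measurable and 0 passed the limma threshold, with a smallest adjusted p of 0.138. Over all 18884 genes tested in this line, 1 passed (0.0053%). At an unadjusted p under 0.05, 6 of the 10 genes were reached (IFI6, IFI44, IFITM1, MX1, ISG15 and ISG20), against 12.3% of all genes. The siRNA pair lay above the parental pair in 7 genes, against 27.2% of all genes, and below it in 1 gene, IFITM1, against 26.8%. The median log2 fold change of the 10 genes was 0.34, and that of all genes was 0.00156.

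The ISG15 level in Capan-1 was 4.32 and 4.58 after siRNA and 3.69 and 3.67 in parental cells. Its log2 fold change was 0.77 (SE 0.11, adjusted p = 0.138, limma). ISG20 read 5.63 and 5.80 after siRNA and 5.02 and 5.05 in parental cells, a log2 fold change of 0.68 (SE 0.09, adjusted p = 0.138, limma). The groups were separate for both genes, whose calls turned on the method. Both passed the limma threshold with normexp background correction, at adjusted p = 0.00472 for ISG15 and 0.00741 for ISG20, and when the spread was given an intensity trend, at 0.0302 for both. Over all alternatives the adjusted p ranged up to 0.694 for ISG15 and 0.712 for ISG20.

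IFI44 was 1.18 and 1.39 after siRNA and 0.69 and 0.56 in parental Capan-1 cells, a log2 fold change of 0.66 (SE 0.18, adjusted p = 0.296, limma). IFI6 was -0.94 and -0.71 after siRNA and -1.40 and -1.29 in parental cells, a log2 fold change of 0.52 (SE 0.12, adjusted p = 0.257, limma). For both genes the groups did not overlap. The study's methods start from an interval that holds 99% of the ratios of both parental arrays at like intensity. Each siRNA array was set against the parental array of the same number, although the numbers are not known to pair the samples. On both siRNA arrays, 4 of the 10 genes lay above it (IFI6, IFI44, ISG15 and ISG20) and 0 below, beside 1.14% and 0.795% of all genes. Only this step was applied, since the methods also ask for several probes per gene and these 4 genes have 1 each.

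MX1 read 1.39 and 1.52 after siRNA and 1.14 and 1.20 in parental Capan-1 cells, a log2 fold change of 0.28 (SE 0.09, adjusted p = 0.334, limma). IFI44L, a relative of IFI44, read -3.57 and -3.68 after siRNA and -3.88 and -4.16 in parental cells, a log2 fold change of 0.40 (SE 0.26, adjusted p = 0.562, limma). IFI27 read 3.33 and 3.25 after siRNA and 3.17 and 2.98 in parental cells, a log2 fold change of 0.21 (SE 0.10, adjusted p = 0.443, limma). In all 3 the siRNA arrays were the higher ones, with small gaps.

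IFITM1 was 2.46 and 2.55 after siRNA and 2.70 and 2.80 in parental Capan-1 cells, a log2 fold change of -0.25 (SE 0.09, adjusted p = 0.355, limma), and -0.13 (adjusted p = 0.558, limma) on its second probe. MX2 read 2.06 and 2.04 after siRNA and 2.03 and 2.05 in parental cells. IFI35 read 1.16 and 1.10 after siRNA and 1.09 and 1.15 in parental cells. Groups overlapped for MX2 and IFI35, with log2 fold changes of 0.01 for each that turned negative without scaling between arrays (-0.15 for each).

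Set side by side, ISG15 and IFI44 were lower after siRNA in MIA PaCa-2 and higher in Capan-1, without overlap in either line. Their log2 fold changes in MIA PaCa-2 minus those in Capan-1 were -1.09 and -1.04. For IFI27 the value in MIA PaCa-2, 2.09, exceeded that in Capan-1, 0.21, by 1.88. IFI6 and ISG20 had positive values in both lines. None of these differences between the lines was tested, because the MIA PaCa-2 values chose the genes. Over all genes, the siRNA pair lay below the parental pair in 23.8% in MIA PaCa-2 and above it in 27.2% in Capan-1. The share of all genes with both was not computed, so nothing is read from the count of such genes here.

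**Figure D3:**
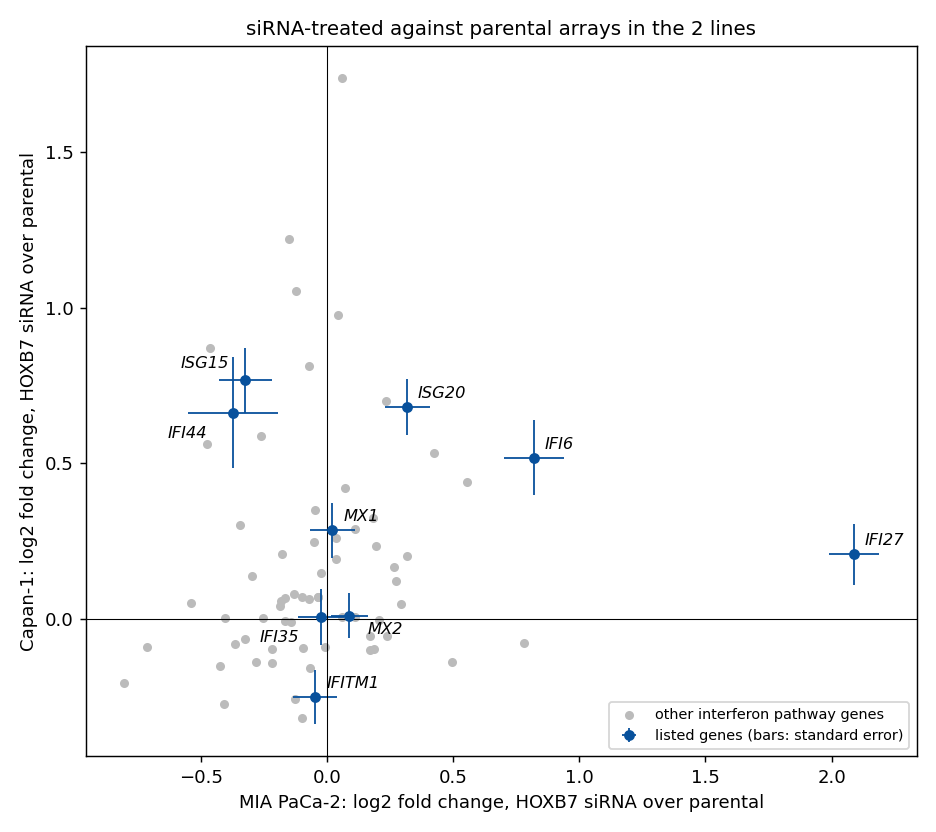
Log2 fold change of siRNA over parental arrays in MIA PaCa-2 (x axis) and Capan-1 (y axis); blue points are 9 of the 10 genes with standard errors in both directions and grey points are the other interferon pathway genes tested in both lines. IFI27 lies far to the right at 2.09, and ISG15 and IFI44 lie in the upper left at -0.32 and -0.37 on the x axis.

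The widest differences were those between the untransfected lines, which also differed in slide and, per the paper's methods, in medium and serum. All 10 genes passed the limma threshold in parental MIA PaCa-2 against parental Capan-1, 7 lower and 3 higher, but so did 73.2% of all 20123 genes tested (31.7% lower and 40.1% higher). IFI27 was lower in MIA PaCa-2 by a log2 fold change of -5.00 (SE 0.10, adjusted p = 4.49e-07, limma), or 32.1-fold. MX1 was lower at -3.89 (SE 0.09, adjusted p = 6.85e-07, limma), IFI44 at -2.42 (SE 0.18, adjusted p = 5.95e-05, limma), MX2 at -1.65 (adjusted p = 7.3e-06, limma), ISG20 at -1.47 (adjusted p = 2.66e-05, limma) and IFI35 at -1.11 (adjusted p = 9.37e-05, limma). IFI44L was at least 3.94-fold lower in MIA PaCa-2, where it was not well above background (adjusted p = 0.000143, limma), and its log2 fold change with normexp background correction was -0.32.

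IFITM1 had the widest difference in the other direction, at 3.55 (SE 0.09, adjusted p = 8.53e-07, limma) and 3.58 (adjusted p = 8.29e-07, limma) on its probes, an 11.8-fold higher level in MIA PaCa-2 on the brighter one. IFI6 was higher at 1.66 (adjusted p = 5.45e-05, limma) and ISG15 at 1.34 (adjusted p = 7.93e-05, limma). In the order of the 4 group levels, both groups of 1 line lay beyond both groups of the other line, without overlap, for each of the 10 genes, although IFI44L has only an upper limit in MIA PaCa-2. After siRNA, IFI27 in MIA PaCa-2 was therefore still below its level in parental Capan-1, at 0.16 and 0.16 against 3.17 and 2.98. The neighbouring groups that overlapped were those within MIA PaCa-2 for IFI35, IFITM1 and MX1 and those within Capan-1 for IFI35 and MX2.

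**Figure D4:**
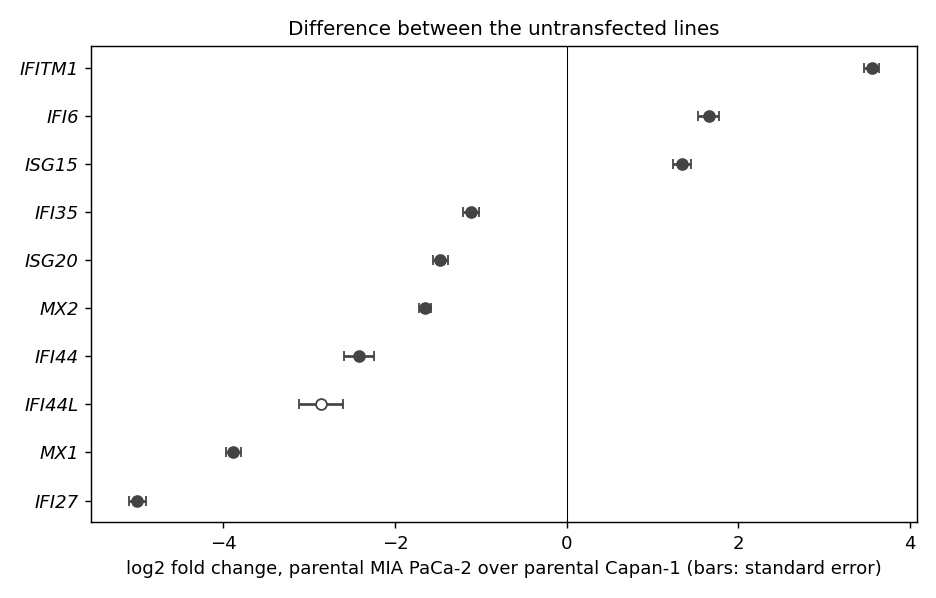
Log2 fold change of parental MIA PaCa-2 over parental Capan-1 for the 10 genes (x axis), with standard errors as bars and 2 arrays a group; the open point marks IFI44L, not well above background in MIA PaCa-2. Values run from -5.00 for IFI27 to 3.55 for IFITM1, with 7 genes below 0 and 3 above.

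The probes lie, in the hg18 coordinates of the array files, at chr14:93652720-93652779 for IFI27, chr1:27865424-27865483 for IFI6, chr17:38418648-38418707 for IFI35, chr1:78901067-78901126 for IFI44 and chr1:78880178-78880237 for IFI44L. The brighter and dimmer IFITM1 probes lie at chr11:305209-305268 and chr11:305054-305113, MX1 at chr21:41752884-41752943, MX2 at chr21:41702371-41702430, ISG15 at chr1:939430-939489 and ISG20 at chr15:86999788-86999847. Exons were not assigned, since an hg18 annotation was not used here. By gene order, IFI27 lies between IFI27L1 and IFI27L2, IFITM1 between IFITM2 and IFITM3, and MX2 next to MX1.

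These neighbours did not share the values of the genes beside them in every case. In MIA PaCa-2 the log2 fold change was 2.09 for IFI27 but -0.10 for IFI27L1 (adjusted p = 0.593, limma) and -0.03 for IFI27L2 (adjusted p = 0.912, limma). IFITM2 was -0.40 (adjusted p = 0.0779, limma) and IFITM3 -0.19 (adjusted p = 0.266, limma), with both siRNA arrays below both parental arrays in each. IFITM2 passed the threshold with normexp background correction (adjusted p = 0.022, limma) and with an intensity trend. In Capan-1 the values were 0.07 for IFI27L1, 0.07 for IFI27L2, 0.00443 for IFITM2 and 0.04 for IFITM3, with limma adjusted p from 0.777 to 0.991, and without scaling between arrays all 4 were negative. IFITM1, IFITM2 and IFITM3 are close paralogs, and the values of their probes are uncertain to that extent.

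Of 75 other genes of the interferon pathway, 74 were named on the arrays. In MIA PaCa-2, 63 were tested, of which 0 were higher and 1 was lower past the limma threshold, beside 1.17% and 1.12% of all genes. That gene was TLR3, the endosomal sensor of double-stranded RNA, at -4.70 and -4.94 after siRNA and -3.95 and -4.08 in parental cells. Its log2 fold change was -0.80 (SE 0.12, adjusted p = 0.0406, limma). Its intensities in MIA PaCa-2 were low, from 8.44 to 21.3, though well above background on each array. The call was lost without scaling between arrays (adjusted p = 0.112, limma), without a filter on dim probes and with only the arrays compared. All genes called in this line were then 0.245%, 0.0367% and 0%, against 2.3% in the main fit. The call was also lost without any 1 of the 8 arrays, which leaves 1 array in a group. With normexp background correction the log2 fold change was -0.05. In Capan-1, TLR3 was -1.94 and -2.09 after siRNA and -1.77 and -1.84 in parental cells (adjusted p = 0.52, limma).

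The pathway genes tested in MIA PaCa-2 centred on a log2 fold change of -0.07 (median), and the siRNA pair lay above the parental pair in 15 of 63 genes and below it in 23, beside 27.9% and 23.8% of all genes. Of the 8 ligands, 7 were named on the arrays and 2, the lambda interferons IFNL1 and IFNL2, were tested, with 0 called. No receptor (6 tested), signal transducer (6), regulator (7), enzyme of ISG15 conjugation (5) or family relative (7) passed, nor did any of 22 other effectors. On the brightest probe of each gene, the lowest limma adjusted p in these groups ranged from 0.0584, in the other effectors, to 0.414, in the receptors.

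In Capan-1, 68 of the pathway genes were tested and 0 passed the limma threshold, beside 0.0053% of all genes. The median was 0.06, with both siRNA arrays above both parental arrays in 28 genes and below in 17, beside 27.2% and 26.8% of all genes. The highest values were those of RSAD2 and IFIT1, named here after their values were seen. RSAD2, the antiviral enzyme viperin, was -1.83 and -1.89 after siRNA and -3.58 and -3.61 in parental cells, a log2 fold change of 1.74 (adjusted p = 0.117, limma). IFIT1, which binds foreign RNA ends, was 2.39 and 2.48 after siRNA and 1.20 and 1.23 in parental cells, a log2 fold change of 1.22 (adjusted p = 0.0938, limma). The groups were well apart for both genes. The lowest value, also named after it was seen, was that of IFNB1, interferon beta, at -7.56 and -6.03 after siRNA and -4.90 and -5.34 in parental cells. IFNB1 was not well above background on either Capan-1 siRNA array, and its parental intensities were low, at 8.88 and 7.71. Counted from the lowest signal well above background, which gives only a lower bound, the siRNA level was 1.77-fold lower. The measured difference did not pass the threshold (adjusted p = 0.356, limma), so a fall is not established. The ligand IFNL1, also named after its value was seen, was -2.14 and -2.26 after siRNA and -3.21 and -3.14 in parental cells. Its log2 fold change was 0.98 (adjusted p = 0.138, limma), and that of IFNL2 was 0.33 (adjusted p = 0.334, limma). For both of these ligands the siRNA arrays were the higher ones, without overlap.

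IFIT2 (1.05), OASL (0.87) and IFIT3 (0.81), also named after their values were seen, had limma adjusted p of 0.138, 0.121 and 0.121 in Capan-1. In MIA PaCa-2 the log2 fold changes of these 5 genes were 0.06 for RSAD2, -0.15 for IFIT1, -0.12 for IFIT2, -0.46 for OASL and -0.07 for IFIT3. OASL was lower past the threshold there with normexp background correction and with an intensity trend, where 2.61% and 3.41% of all genes were lower. In Capan-1 all 5 passed the threshold with an intensity trend, and with normexp background correction, which also called IFNL1. With quantile normalization IFIT1 and RSAD2 passed. The shares of all genes called in Capan-1 were then 0.265%, 0.408% and 0.0635%.

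**Figure D5:**
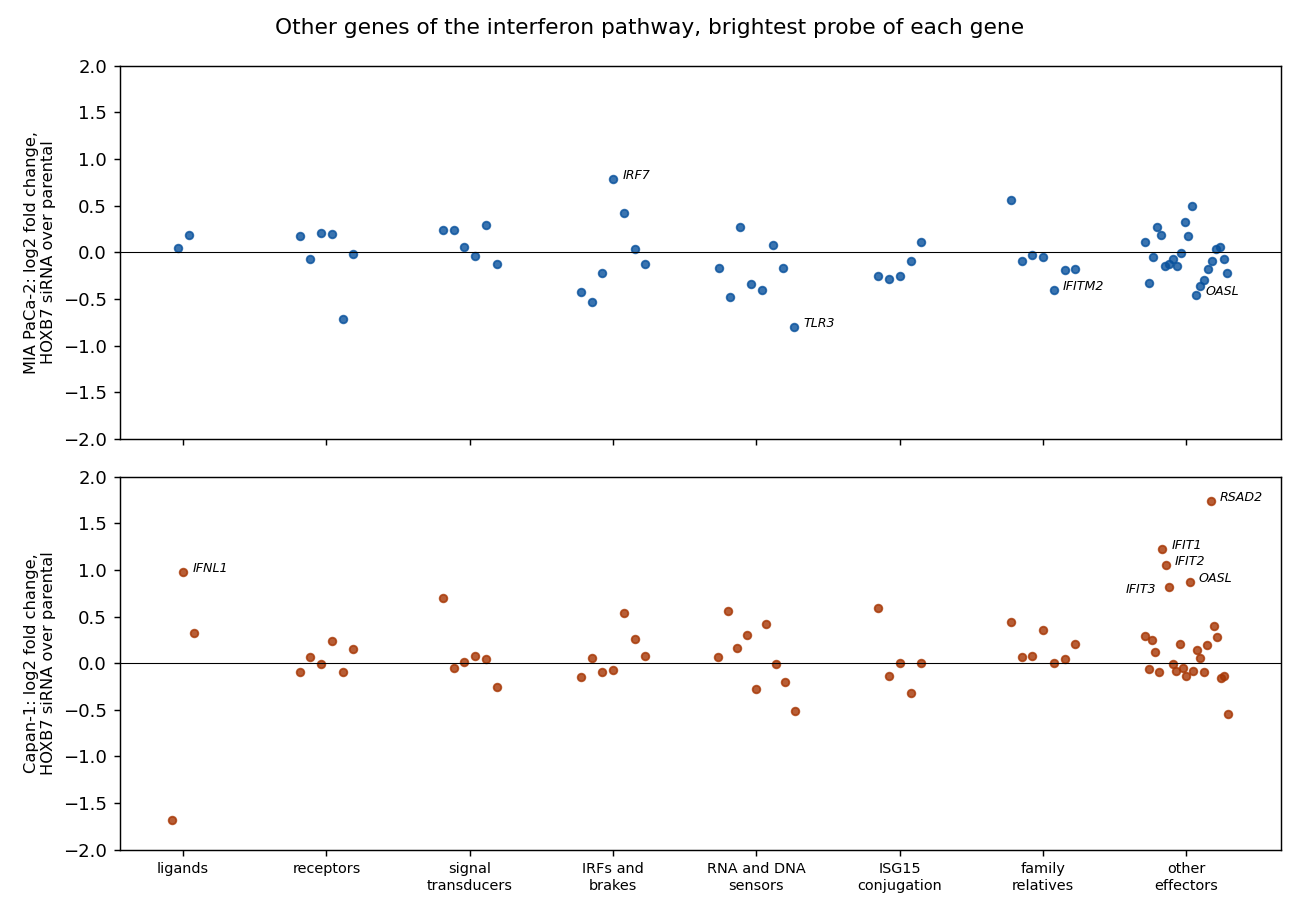
Log2 fold change of siRNA over parental arrays (y axis) for each tested pathway gene outside the 10, by role (x axis), in MIA PaCa-2 (top) and Capan-1 (bottom); each point is the brightest probe of 1 gene and a few genes are named. TLR3 is at -0.80 in MIA PaCa-2, and RSAD2 and IFIT1 are at 1.74 and 1.22 in Capan-1.

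Likeness between genes was described by the correlation over the 8 arrays of values centred within each line, which share slides and scaling. The centred values still hold the siRNA-against-parental differences, including the MIA PaCa-2 one that chose the genes, so likeness among them partly repeats that choice. Among the 9 measurable genes, IFI27 was most like MX2 (r = 0.93) and IFI6 (r = 0.86), and IFI44 was most like ISG15 (r = 0.90). MX1 was most like ISG20 (r = 0.91), and IFITM1 ran opposite to ISG20 (r = -0.82). Over 20276 probes, the 5 genes most like IFI27 were NFIA, CREB3L2, AXL, TPM4 and LMCD1, with r from 0.988 to 0.992. In MIA PaCa-2 the log2 fold change of LMCD1 was 1.78 and those of the others 0.30 to 0.61. The 5 most like IFI44 were VDAC3, ZMYM5, SNRPA1, ZNRD1 and C10orf4, with r from 0.983 to 0.989 and log2 fold changes in MIA PaCa-2 between -0.17 and -0.07.

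Of 4 markers of leukocytes and endothelium, 3 (PTPRC, CD3E and CD14) were above background on all arrays of both lines, and PECAM1 was above background on no Capan-1 array, each on its brightest probe. A second PECAM1 probe was above background on 1 Capan-1 siRNA array. The probes of PTPRC differed: its second brightest probe was above background on all MIA PaCa-2 arrays and no Capan-1 array. Its remaining, dimmer probes were above background on no array of either line. Their summed intensity was 804 to 919 after siRNA and 1027 to 1333 in parental cells for MIA PaCa-2, and 173 to 185 and 164 to 181 for Capan-1. CD3E had the same order as IFI27 in MIA PaCa-2, at -1.26 and -2.26 after siRNA and -3.05 and -3.09 in parental cells (adjusted p = 0.0917, limma). The other markers did not share this order. On their brightest probes CD14 (log2 fold change -0.34) and PTPRC (-0.06) had both siRNA arrays below both parental arrays, and the PECAM1 groups overlapped. The part of these markers in the results was not tested.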

How the data were processed

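Total RNA of 8 samples was labelled with Cy3 and hybridised to Agilent Human 4x44K arrays. The authors scanned the arrays, extracted the data with Feature Extraction 9.5.3 (per the labels) and deposited the background-subtracted, detrended intensity of each spot with its flags. The deposited table of log2 values equals the log2 of these intensities (largest difference 3.45e-08), which shows that the arrays had not been scaled to each other. Spots with outlier flags were left out, log2 intensities were averaged per probe and the 75th percentile of each array was subtracted. Fitting used limma 3.58.1 in R 4.3.3 (lmFit, eBayes, group means of all 8 arrays), over probes that 1 or more of the compared groups had well above background on both of its arrays, with two-sided p-values adjusted by Benjamini-Hochberg over all these probes at 0.05. A gene was called when at least 1 probe passed in 1 direction and none in the other, and the brightest probe of a gene is described. With 2 arrays against 2, an exact permutation test cannot go below 0.333, so none was used. An "at least" fold compares the brighter group's mean with, on each array of the dim group, the higher of the probe's signal and the lowest signal well above background. The number of arrays limits the precision.

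The genes described, and all gene lists, were chosen with earlier results of these data known. The genes named are those 10, pathway genes past the threshold, the relatives IFI27L1, IFI27L2, IFITM2 and IFITM3, HOXB7, and the 5 probes most like the gene with the widest rise and fall in MIA PaCa-2. RSAD2, IFIT1, IFIT2, IFIT3, OASL, IFNL1, IFNL2, IFNB1, OAS3, DHX58, MAVS and IFIH1 were named after their values were seen. The symbols of the 10 genes are those of the array files, and for some other genes a current symbol is used, such as EPCAM for TACSTD1. A marker of another cell type is not reported here. Promoter windows came from RefSeq (GRCh38.p14) and were searched, and figures drawn, in Python 3.11.15 with matplotlib 3.10.9. Alternatives were normexp background correction (offset 50), quantile or no scaling, outlier spots kept, the deposited log2 table, a stricter or no filter on dim probes, each comparison fitted alone, an intensity trend, the replicate number as a block, each array left out, and, in Capan-1, the 99% interval of the parental arrays, 1 step of the study's methods, in a window of 1001 probes. The limma step was tested on simulated data.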

Additional observations from a re-analysis of the deposited data

Results flagged for a closer look

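ISG15 and IFI44 lay on opposite sides of their parental arrays in the 2 lines: the siRNA pair lay below the parental pair in MIA PaCa-2 and above it in Capan-1. The log2 fold change in MIA PaCa-2 minus that in Capan-1 was -1.09 for ISG15 and -1.04 for IFI44. Without MIA PaCa-2 parental replicate 2 the log2 fold change of IFI44 in that line was -0.12. The difference was not tested, since the MIA PaCa-2 values chose the genes. Of all genes, 23.8% had the siRNA pair below the parental pair in MIA PaCa-2 and 27.2% had it above in Capan-1. How many genes had both was not computed.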

How the results depend on the processing

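Between the parental lines, all 10 genes passed the limma threshold in the same direction under each alternative, except that 9 did, with IFI44L not tested, where all arrays compared had to be well above background. In Capan-1, none passed, except 2 with normexp background correction, 2 with an intensity trend and 4 by the interval of the parental pair, without the methods' rule on several probes per gene. In MIA PaCa-2, genes with both siRNA arrays above both parental arrays numbered 2 rather than 4 without scaling between arrays, which moved the median of all probes to -0.19 there and -0.16 in Capan-1. Other pathway genes past the threshold in MIA PaCa-2 numbered 1 higher (OAS3) and 4 lower (DHX58, IFITM2, MAVS and OASL) with normexp. With an intensity trend they numbered 1 higher (OAS3) and 5 lower (DHX58, IFIH1, IFITM2, OASL and TLR3). All genes called in that line were 2.28% higher and 2.61% lower with normexp and 2.92% and 3.41% with the trend. No pathway gene was lower without scaling, without a filter or with only the arrays compared, beside 0.172%, 0.0183% and 0% of all genes. In Capan-1, pathway genes past the threshold numbered 6 with normexp, 2 with quantile normalization and 5 with an intensity trend, where 0.408%, 0.0635% and 0.265% of all genes were called. With the replicate block the pathway count in MIA PaCa-2 was 0 lower, since TLR3 had an adjusted p of 0.0625 (limma), and no other count changed. That fit called 0.0626% of all genes lower in MIA PaCa-2. Same-numbered arrays deviated from their group means with r = 0.0232 for MIA PaCa-2 and 0.0377 for Capan-1, over 2 pairs each, so the numbers were not taken to pair the samples in the main fit. The interval of the parental pair in Capan-1 did set same-numbered arrays against each other, and other pairings were not tried.

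Log2 fold changes that changed sign were close to 0. In MIA PaCa-2, where their groups overlap, MX1 (0.02) was -0.19 without scaling, -0.03 with quantile normalization and -0.02 without parental replicate 2, and IFI35 (-0.03) was 0.02 with normexp, 0.05 without siRNA replicate 1 and 0.00896 without parental replicate 1. Without scaling MX2 was -0.127 in MIA PaCa-2, whereas in Capan-1 MX2 was -0.15, IFI35 -0.15, IFI27L1 -0.087, IFI27L2 -0.0857, IFITM2 -0.15 and IFITM3 -0.11. With quantile normalization in Capan-1 MX2 was -0.0149, IFITM2 -0.0595 and IFITM3 -0.0449. IFITM2 there was -0.0124 with normexp and -0.000566 with outlier spots kept or from the deposited table. With 1 array left out, the values in Capan-1 ranged from -0.024 to 0.037 for IFI35, -0.00031 to 0.022 for MX2, -0.024 to 0.033 for IFITM2, -0.0021 to 0.14 for IFI27L1 and -0.043 to 0.19 for IFI27L2, and IFI27L2 in MIA PaCa-2 from -0.11 to 0.038. The cause was not tested. Signal over background limits IFI44L and HOXB7 in MIA PaCa-2.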
